A study of Mus musculus with 8 samples.

Results

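The 72 genes described here encode proteins of the cytosolic ribosome in mouse. They were taken by symbol alone, as every protein-coding gene named Rps or Rpl followed by a number and at most the letter a or x. The rule gave 29 genes of the small subunit (Rps) and 43 genes of the large subunit (Rpl), out of 54532 genes listed, and used no measured value. Because of their symbols the rule leaves out some further cytosolic ribosomal proteins, of which Rpsa, Rplp0, Rplp1, Rplp2 and Fau are given beside the members.

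RNA-seq was performed on 8 libraries of brain tissue from male C57BL/6 mice on Day 21. The PTS + RS group had a photothrombotic stroke, in which light on a circulating dye blocks the vessels of a piece of cortex, together with repeated restraint stress, and the RS group had restraint stress without a stroke, with 2 libraries labelled cortex in each group. In a second experiment all mice had both stroke and restraint. RGFP109 was used as an HDAC3 inhibitor, and the paper describes it as selective for the histone deacetylases HDAC1 and HDAC3. In this experiment 2 libraries came from mice given RGFP109, at 60 mg/kg under the skin each day. The other 2 came from mice whose treatment is labelled NaCl. In both of these groups replicate 1 is labelled cortex and replicate 2 amygdala. The sources used here do not state whether a library holds a single mouse or a pool, so the p-values measure only the spread between these libraries.

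A ribosome carries a single copy of nearly every one of these proteins, laid over the ribosomal RNA of a small subunit, which reads the message, and a large subunit, which joins the amino acids. Their mRNAs are among the most abundant in most cells, and many of them begin with a run of pyrimidines, the 5′ terminal oligopyrimidine (TOP) motif, through which the mTOR pathway sets how well they are translated. The genes have left very many processed pseudogenes in the mouse genome, so reads of a ribosomal protein mRNA often match several places.

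To show what the members share at their starts, the sequence around the annotated start of transcription was taken from RefSeq (GRCm38.p6), which held a start region for 53 of the 72 genes, 63 regions in all. A pyrimidine tract, meaning an unbroken run of at least 8 C or T bases on the gene's strand within 20 bases of the start, was found in 28 of the 63 regions, or 44.4%, against 16% of the 32851 regions of all genes. On the opposite strand the same search gave 7.94% of the members' regions and 17.7% of all regions. These windows hold the last 15 bases before the annotated start and the first 15 bases of the first exon, 5′ to 3′ on the strand of the gene, with runs of at least 5 pyrimidines in capitals. The first 6 belong to the members that passed the test between PTS + RS and RS, as given further on, and that had a RefSeq region, and the last 2 to members with long tracts.
Rps26: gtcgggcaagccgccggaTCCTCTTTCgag
Rps6: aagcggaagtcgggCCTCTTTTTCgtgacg
Rps16: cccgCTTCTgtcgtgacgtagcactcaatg
Rpl26: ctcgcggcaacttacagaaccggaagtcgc
Rpl10: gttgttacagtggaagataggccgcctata
Rps4x: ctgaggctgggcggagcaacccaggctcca
Rpl7a: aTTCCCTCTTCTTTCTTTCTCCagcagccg
Rpl35: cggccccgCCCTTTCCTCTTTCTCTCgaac

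The windows lie at chr10:128626492-128626521 (minus strand) for Rps26, chr4:86857353-86857382 (minus) for Rps6, chr7:28350674-28350703 (plus) for Rps16, chr11:68901551-68901580 (plus) for Rpl26, chrX:74270801-74270830 (plus) for Rpl10, chrX:102189377-102189406 (minus) for Rps4x, chr2:26910792-26910821 (plus) for Rpl7a and chr2:39005117-39005146 (minus) for Rpl35. Rps26 and Rps6 hold a tract at the start, whereas Rps16, Rpl26, Rpl10 and Rps4x do not. Rpl7a carried the longest run of the 8, with 21 pyrimidines in a row within 20 bases of the start. Absence of a tract from a window says only that these letters were not found there; the annotated start may lie some bases from the one used in brain.

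Each library held between 15902013 and 21712033 counts on genes, of which 3.59% to 4.55% fell on genes of the mitochondrial genome. The 72 members together took under 1% of each library. Their share of the counts was 0.793% (95% exact binomial interval 0.7892 to 0.7977) and 0.825% (0.821 to 0.8296) in the PTS + RS libraries, and 0.775% (0.7709 to 0.7789) and 0.754% (0.7496 to 0.7581) in the RS libraries. Both PTS + RS libraries lay above both RS libraries, with means of 0.809% ± 0.0226 and 0.764% ± 0.0148 (SD, n = 2), a ratio of 1.06. With RGFP109 the share was 0.826% (0.8211 to 0.8299) and 0.761% (0.7575 to 0.7648), and with NaCl 0.848% (0.8438 to 0.8525) and 0.922% (0.918 to 0.9268), a ratio of the means of 0.897. The lowest and the highest of these 4 libraries were the RGFP109 and NaCl libraries labelled amygdala, and the 2 labelled cortex lay close to each other between them. The intervals cover counting error only. In bulk tissue, fewer cells of a type and less RNA per cell cannot be told apart.

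**Figure D1:**
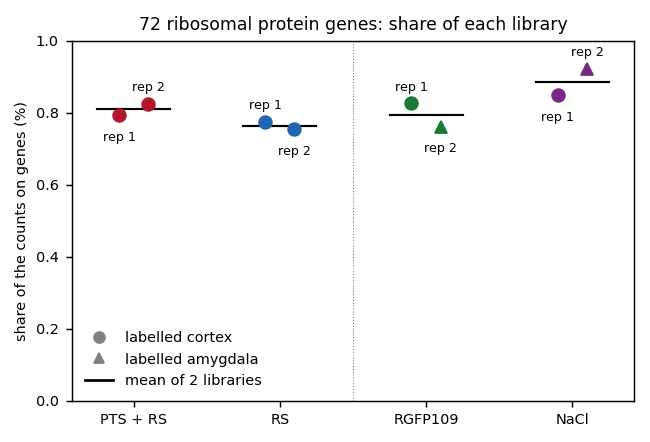
Share of the counts on genes taken by the 72 ribosomal protein genes (percent) in each of the 8 libraries, by group. Circles are libraries labelled cortex, triangles libraries labelled amygdala, and the line is the mean of 2 libraries. The shares ran from 0.754% in RS replicate 2 to 0.922% in NaCl replicate 2.

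Levels of different members were compared on the FPKM scale, which divides by gene length. Although a ribosome needs about equal numbers of each protein, the FPKM of the members spanned a wide range, from a median over the 4 libraries of 1.41 for Rps10 to 246 for Rps15 in the table of PTS + RS and RS. The middle of the distribution was narrow, with quartiles of 30.1 and 81.5 around a median of 53.5, a ratio of 2.7. In the table of RGFP109 and NaCl the quartiles were 31.5 and 92 around a median of 57.4, a ratio of 2.93.

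The same 4 members stood highest in both tables. Rps15, a protein of the head of the small subunit, was at an FPKM of 180 and 234 in PTS + RS, 258 and 266 in RS, 304 and 252 with RGFP109, and 229 and 339 with NaCl. Rpl4, which lines the tunnel through which the new protein leaves, was at an FPKM of 199, 222, 190 and 179 in the first table (PTS + RS, then RS) and at 195, 178, 188 and 196 in the second (RGFP109, then NaCl). Rpl36, a large subunit protein, was at 138, 152, 166 and 181 and at 217, 191, 199 and 220, and Rpl19, another, at 169, 203, 147 and 141 and at 164, 163, 170 and 189. The ranges of Rpl4, Rpl36 and Rpl19 over the libraries overlapped in the first table. Library by library, Rpl4 lay above Rpl19 throughout both tables. Rpl36 was the lowest of the 3 in the PTS + RS libraries but lay above Rpl19 in the RS libraries. In the second table Rpl36 lay above both Rpl4 and Rpl19 in every library. Rps15 lay above all 3 in each library of the second table and in 3 of the 4 libraries of the first.

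At the other end, Rps10 was at an FPKM between 1.33 and 1.57 in the first table and between 1.2 and 1.61 in the second. Rpl24 was at 1.63, 1.5, 2.34 and 1.4 in the first and at 1.35, 0.726, 1.15 and 0.473 in the second. Rpl13a was at a median of 6.39 and 6.87 and Rpl21 at 6.65 and 10.5 in the 2 tables. All 4 genes share coding sequence with other genes. By the annotation of GENCODE release M21, 20.6% of the exon bases of Rps10 lie in RPS10-NUDT3, and 47% of those of Rpl24 lie in Gm28037, on the same strand in both cases. Whether reads of these genes were lost in counting was not tested.

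**Figure D2:**
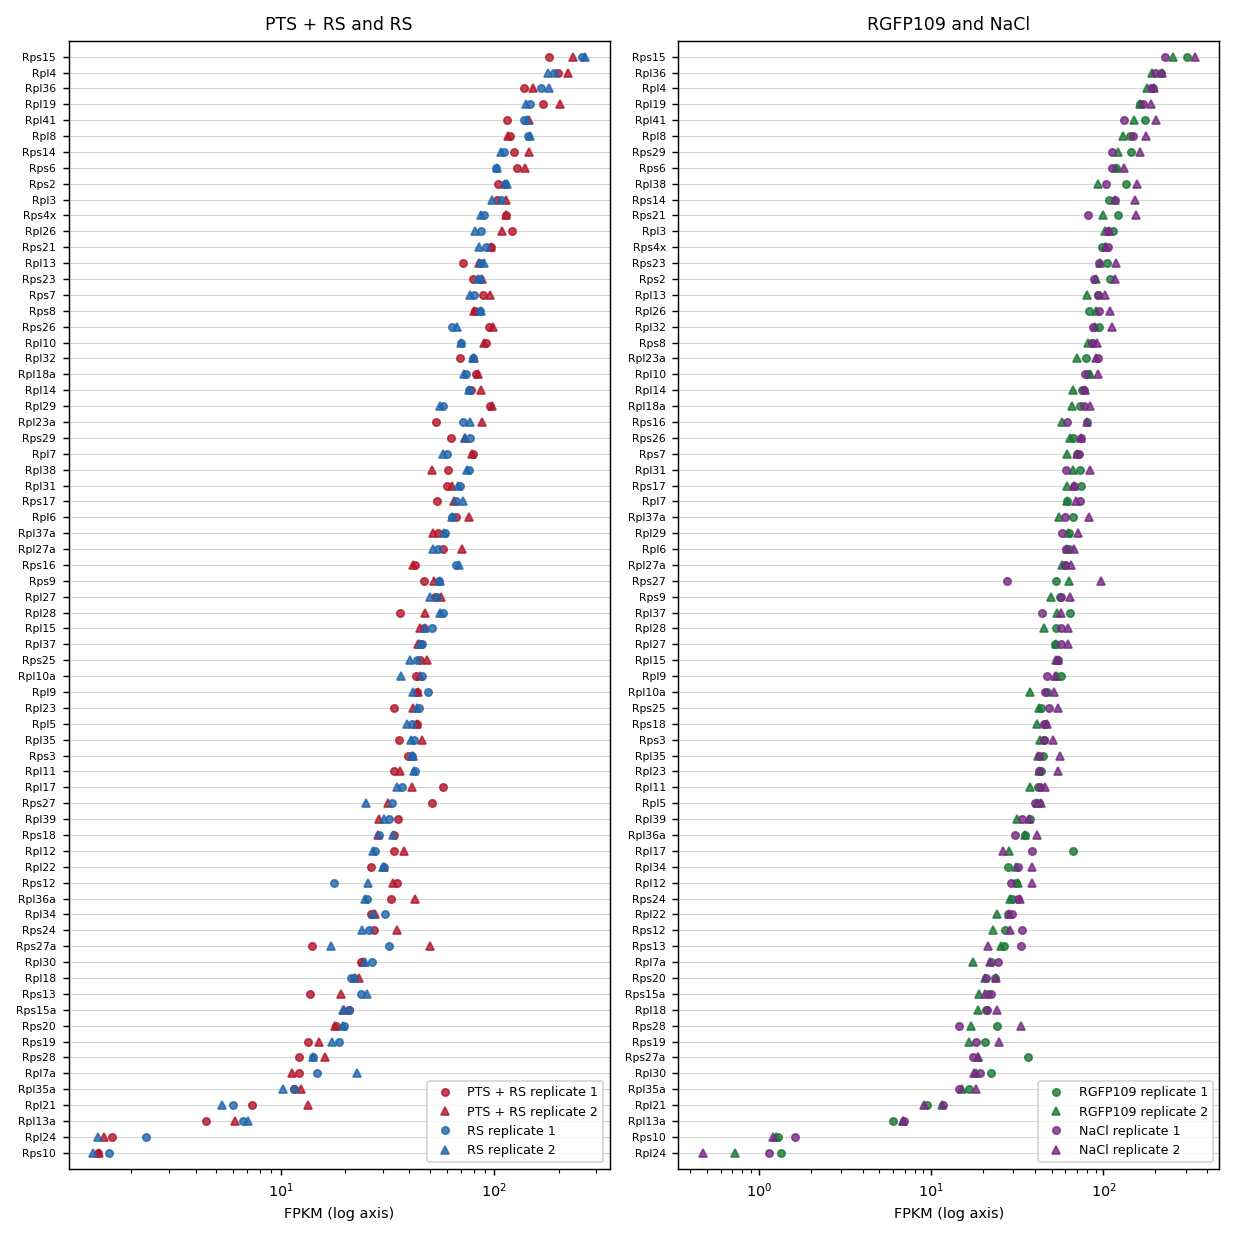
Deposited FPKM of the members (log axis) in the 4 libraries of each table, with genes ordered by their median from Rps15 at the top to Rps10 or Rpl24 at the bottom. The quartiles lie at 30.1 and 81.5 in the first table and at 31.5 and 92 in the second, and Rps10, Rpl24, Rpl13a and Rpl21 lie far below.

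How much of a member can be told apart from its copies was measured on its coding sequence, as the percentage of 50-base windows that occur without a mismatch in another annotated transcript. The median over members was 93.2%, and all windows were shared in 29 of the 72 members. Among the lowest percentages were 8.1% in Rps3, 8.7% in Rpl8 and 20.3% in Rpl4. Rpl7a shared windows with 120 pseudogenes, and Rpl29 and Rpl21 with 81 each. Only 10 members had under 50% shared windows and no exon overlap with another gene on their strand, small RNA genes apart (Rpl4, Rpl8, Rpl22, Rps3, Rps15 and Rps21 among them). Their median FPKM was 81.7, against 46.1 for the other 62, in the first table and 96 against 54.9 in the second. Over all 72 members the level followed the share of windows only weakly, with a Spearman's rho of -0.14 and -0.09 as a description.

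The counts assigned to the copies were small for most members. When the counts of each member were added to those of its copies, the member itself held a median of 94.7% of the sum in the table of PTS + RS and RS and 95.3% in that of RGFP109 and NaCl, and 90% or more in 48 and 47 of the 72. It held less than 50% in Rpl17, Rpl21, Rps10 and Rps27 in the first table and in Rpl17, Rpl21, Rpl24 and Rps10 in the second. Rps10 held 7.52% and 7.36%, with most of the rest on the processed pseudogene Rps10-ps2, which had between 542 and 824 counts per library. Reads that match a gene and its copy equally well cannot be placed, and how they were handled is not stated. The value summed with the copies is also given for members where it differs most from the value alone. Such a sum does not recover reads left out of the counts.

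The comparison of PTS + RS with RS asks what the stroke added to the stressed cortex. The members did not move as a block: 36 lay above 0 and 36 below 0 on the log2 fold change scale, with a median of -0.007, against -0.002 over all 17581 genes tested. A small number of members stood out in both directions. At an adjusted p under 0.05, 7 of the 72 were upregulated in the PTS + RS group, or 9.72% against 2.96% of all genes tested, and 1 was downregulated, or 1.39% against 0.586% of all genes. None reached a change of at least 1 on the log2 scale, which 2.12% of all genes did upwards and 0.0910% downwards. All 72 passed the filter on low counts.

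In the small subunit, 3 members rose and 1 fell. Rps26 (ENSMUSG00000025362, chromosome 10 from 128624534 to 128626747 in GRCm38, as for the genes that follow), which lies where the mRNA leaves the ribosome and is mutated in Diamond-Blackfan anaemia, was at 148 and 153 CPM (counts-per-million, scaled to the normalised library size) in the PTS + RS libraries and at 98.1 and 104 CPM in the RS libraries. The groups did not overlap, and the log2 fold change was 0.58 (SE 0.074, adjusted p = 0.0087 in edgeR's quasi-likelihood test). Rps6 (ENSMUSG00000028495, chromosome 4 from 86854660 to 86857412), the protein phosphorylated by the S6 kinases downstream of mTOR, was at 204 and 222 CPM against 162 and 164 CPM. Its log2 fold change was 0.39 (SE 0.077, adjusted p = 0.046), just inside the threshold. Rps4x (ENSMUSG00000031320, chromosome X from 102184941 to 102189394), the X-linked gene of its protein, was at 186 and 185 CPM against 147 and 141 CPM, again without overlap. The log2 fold change of Rps4x was 0.36 (SE 0.071, adjusted p = 0.042).

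Rps16 (ENSMUSG00000037563, chromosome 7 from 28350652 to 28353155), a protein of the head of the small subunit whose tail reaches the tRNA in the peptidyl site, went the other way. It was at 54.5 and 53.2 CPM in the PTS + RS libraries and at 84.2 and 86.5 CPM in the RS libraries. Replicates lay close together and the groups far apart, with a log2 fold change of -0.66 (SE 0.077, adjusted p = 0.0053, edgeR's quasi-likelihood test). It was the only one of the 14 measured proteins of the small subunit head that passed the test. That is 7.14% downregulated, against 1.39% of all 72 members and 0.586% of all genes tested. The 14 had a median of -0.079 with 5 above 0 and 9 below.

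In the large subunit, 4 members rose and none fell. Rpl29 (ENSMUSG00000048758, chromosome 9 from 106429454 to 106431568), also known as a heparin-binding protein, showed the largest difference among the called members. It was at 109 and 110 CPM in PTS + RS and at 65.2 and 63.2 CPM in RS, a log2 fold change of 0.77 (SE 0.074, adjusted p = 0.0027). Rpl26 (ENSMUSG00000060938, chromosome 11 from 68901583 to 68906989), at the exit of the peptide tunnel, was at 177 and 158 CPM against 126 and 118 CPM. Its log2 fold change was 0.45 (SE 0.085, adjusted p = 0.038). Rpl7 (ENSMUSG00000043716, chromosome 1 from 16101295 to 16104662) was at 216 and 212 CPM against 162 and 155 CPM, a log2 fold change of 0.43 (SE 0.072, adjusted p = 0.025). Rpl10 (ENSMUSG00000008682, chromosome X from 74270812 to 74273135), which joins the large subunit late in its assembly, was at 189 and 185 CPM against 145 and 144 CPM. Its log2 fold change was 0.37 (SE 0.070, adjusted p = 0.039). In each of these 4 genes both PTS + RS libraries lay above both RS libraries.

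Several members had folds of similar size without passing the test, with replicates that differed more in most of them. Rpl21 had the highest fitted value of all 72, 0.88 (SE 0.258, adjusted p = 0.14, edgeR), from 25.2 and 45.8 CPM in PTS + RS against 20.4 and 18.2 CPM in RS. Rps12, a protein of the small subunit head, was at 72 and 68 CPM against 36.3 and 52 CPM (log2 fold change 0.67, adjusted p = 0.076). Rpl36a was at 54.8 and 70.9 CPM against 42.4 and 41.1 CPM (0.59, adjusted p = 0.061). The groups did not overlap in these 3 genes, although PTS + RS replicates of Rpl21 and RS replicates of Rps12 were far apart.

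On the lower side, Rpl7a had the lowest fitted value, -0.67 (SE 0.197, adjusted p = 0.14, edgeR), from 21.9 and 20.2 CPM in PTS + RS against 26.5 and 40.5 CPM in RS. Rps13, which helps bridge the subunits, was at 37.6 and 51.6 CPM against 64.3 and 68.8 CPM (log2 fold change -0.58, adjusted p = 0.09). Rpl38, known for its part in the translation of Hox mRNAs, was at 33.1 and 27.8 CPM against 41.4 and 40.7 CPM (-0.43, adjusted p = 0.1). Rpl28 was at 67.3 and 87.9 CPM against 106 and 103 CPM (-0.43, adjusted p = 0.13). Both PTS + RS libraries lay below both RS libraries in all 4 of these genes.

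Other members named for their known roles did not pass the test, and apart from Rps27 (0.51) and Rps27a (0.37) they lay between -0.37 and 0.30. Rpl5 and Rpl11, which bind Mdm2 when ribosome assembly fails, had log2 fold changes of 0.13 (adjusted p = 0.42) and -0.26 (adjusted p = 0.13). Rps19 and Rps14, linked to Diamond-Blackfan anaemia and to a form of myelodysplastic syndrome, had values of -0.34 (adjusted p = 0.1) and 0.30 (adjusted p = 0.15). Rpl3, beside the peptidyl transferase centre, was at 0.08, Rps3, at the entry of the mRNA, at -0.02, Rpl4 at 0.19, Rps25 at 0.16, Rpl22 at -0.09, Rpl39 at 0.04, Rpl41 at -0.10 and Rpl13a at -0.37, and none of these 8 passed the test. Over the 16 genes linked to Diamond-Blackfan anaemia that the rule holds, 2 were upregulated (Rps26 and Rpl26) and none was downregulated, with a median of 0.034. Of the 8 members around the exit of the peptide tunnel, 1 was upregulated (Rpl26), with a median of 0.117. In both lists the upregulated members made up 12.5%, against 9.72% of all 72 members and 2.96% of all genes tested.

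Rps27a, whose precursor also supplies ubiquitin, varied more between replicates than any other member. It was at 27.8 and 99 CPM in PTS + RS and at 63.7 and 34.1 CPM in RS. The log2 ratio of replicate 2 to replicate 1 was 1.83 in the first group and -0.90 in the second. The fitted difference of 0.37 had a standard error of 0.533.

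**Figure D3:**
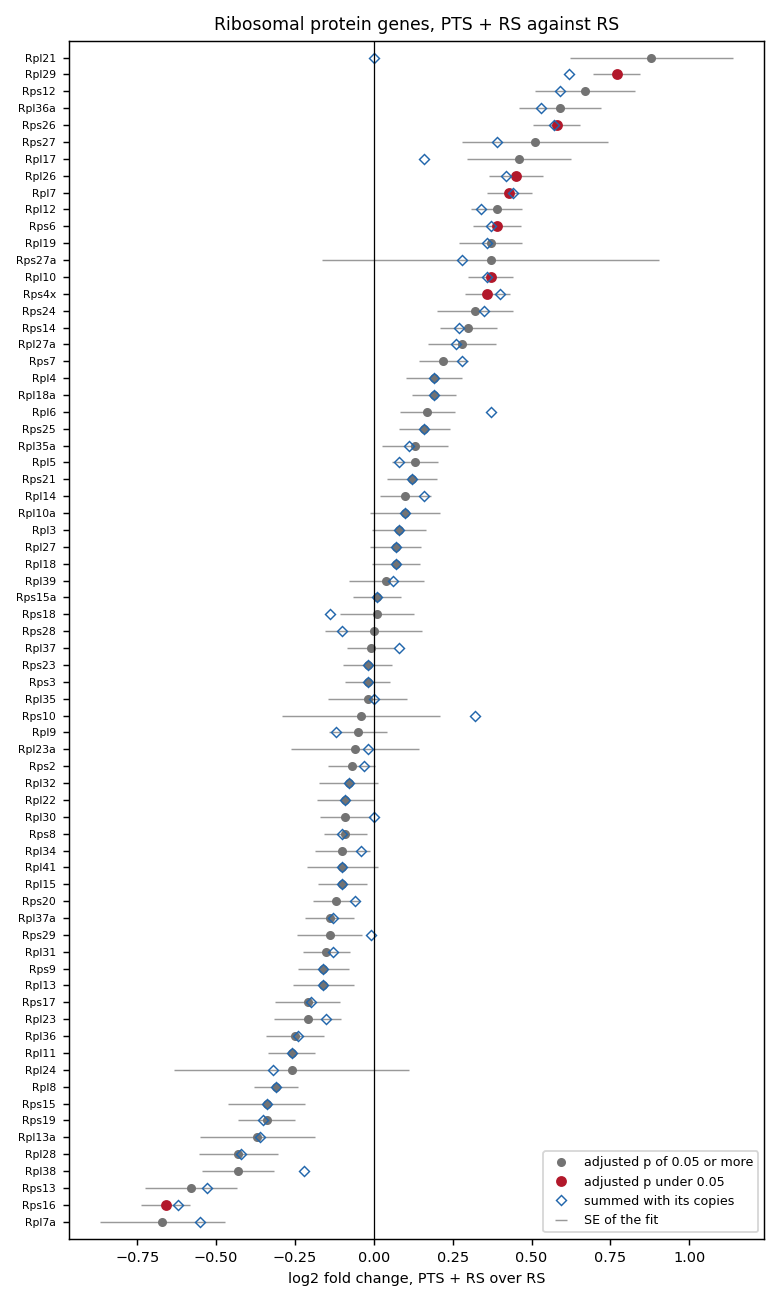
log2 fold change of the members, PTS + RS over RS, with genes ordered by value. Filled points are fitted values (red at an adjusted p under 0.05, 8 genes), bars the standard error, and open diamonds the value after the counts of the copies were added. Values run from -0.67 to 0.88, and the quartiles of the 72 members lie at -0.14 and 0.28. When copies are added, Rpl21 moves to 0 and Rpl17 to 0.16.

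At an unadjusted p under 0.05, 19 members lay higher and 10 lower, which is 26.4% and 13.9% of the members against 10.3% and 7.55% of all genes tested. The libraries of the groups did not overlap in 25 members on the higher side and 23 on the lower side, or 34.7% and 31.9% against 25.7% and 24.5% of all genes. These shares are read beside the smaller error of the members, which are well expressed: their median standard error was 0.089, against 0.153 over all genes and 0.107 over the 10348 protein-coding genes with a mean of at least 10 CPM. The fold changes of the members had an SD of 0.32, against 0.34 in those protein-coding genes. The subunits were alike in their counts, with 15 above 0 and 14 below in the small subunit and 21 above and 22 below in the large subunit.

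The calls were next set against the copies. With the counts of the copies added, the 8 called members kept an adjusted p of 0.05 or less, with Rps6 at 0.05, and Rps12 (0.59, adjusted p = 0.036) and Rpl7a (-0.55, adjusted p = 0.047) passed as well. Rpl29 moved from 0.77 to 0.62 (adjusted p = 0.0065). The value of Rpl21 went from 0.88 to 0.00, where its sum with the copies was at 57.5 and 79.1 CPM in PTS + RS and at 70.4 and 66.5 CPM in RS. Rpl17 likewise went from 0.46 to 0.16, Rpl38 from -0.43 to -0.22 and Rps10 from -0.04 to 0.32. None of the 10 members that can be told apart best from copies passed the test, and these had a median of -0.086 with 3 above 0 and 7 below.

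GC content of the coding sequence moved with the fold change, both in the members and in other genes. Across the 72 members Spearman's rho was -0.34, and across 14736 protein-coding genes it was -0.22, as a description over genes that share the same 4 libraries. With these genes in 5 equal groups of GC content, their median went from 0.068 at the lowest to -0.096 at the highest. The median of the members was 0.084, 0.225, -0.074, -0.014 and -0.208 over the same groups. After a correction for GC content in each library, 4 members remained upregulated, and Rps6 (0.32), Rpl10 (0.31) and Rps4x (0.29) no longer passed the test, with log2 fold changes a little below the uncorrected ones.

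The calls also depended on which libraries were fitted. When all 8 libraries were fitted together, none of the 72 passed in either direction, with log2 fold changes of 0.75 for Rpl29 and -0.69 for Rps16 in that fit. The share of all genes called in that fit is not given here. Leaving out a library left a single library in its group, so only values are given for those fits. The median over the members was 0.048 without PTS + RS replicate 1 and -0.052 without PTS + RS replicate 2. It was 0.039 without RS replicate 1 and -0.035 without RS replicate 2. In each of those fits the direction of the 8 called members stayed the same.

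The ribosomal proteins outside the rule showed the same mixture. Rpsa, also a laminin receptor, was at 337 and 354 CPM against 250 and 242 CPM (log2 fold change 0.49, adjusted p = 0.018), and Rplp0, the base of the ribosomal stalk, at 244 and 251 CPM against 173 and 174 CPM (0.51, adjusted p = 0.012). Rplp1, which binds Rplp0 in the same stalk, was downregulated, at 194 and 222 CPM against 290 and 297 CPM (-0.50, adjusted p = 0.03). Thus the mRNAs of 2 proteins of a single complex differed in opposite directions, each without overlap between groups. Fau (0.26) and Rplp2 (-0.27) did not pass the test.

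Among the 5 paralogs that could be tested, Rpl22l1, a paralog of Rpl22 with roles in RNA splicing, stood apart. It was at 7.53 and 9.04 CPM in PTS + RS and at 27.5 and 23.5 CPM in RS, a log2 fold change of -1.62 (SE 0.160, adjusted p = 0.0031). Rpl22 itself was at 77.6 and 89.6 CPM against 89.2 and 88.4 CPM, with groups that overlapped. Rps27rt, a retrotransposed copy of Rps27 with an intact reading frame, had a value of 0.30 (adjusted p = 0.28), and Rps27 itself 0.51 (adjusted p = 0.32).

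Lists of related genes were counted in the same fit. Of 16 translation factors with TOP mRNAs, 14 lay above 0 with a median of 0.16, and 2 were upregulated, the poly(A)-binding protein Pabpc1 (0.58, adjusted p = 0.011) and the nascent chain protein Naca (0.47, adjusted p = 0.03). Eef1a1, the elongation factor that brings tRNAs, was at 2240 and 2480 CPM against 1820 and 1770 CPM (0.39, adjusted p = 0.11). None passed among 25 ribosome biogenesis genes (median -0.043), 14 genes of mTOR and TOP control (median 0.002), 6 hosts of small nucleolar RNAs (median -0.055) or 77 mitochondrial ribosomal proteins (median -0.045). By contrast, 31 of the 37 nuclear-encoded subunits of respiratory complex I lay below 0, and 7 were downregulated, with a median of -0.31. The lowest of these were Ndufa2 (-1.39) and Ndufa12 (-1.37).

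Members with and without a pyrimidine tract at their start were set side by side. In the 27 members with a tract the median was 0.04, with 2 upregulated and none downregulated. In the 26 with a RefSeq region but no tract, it was -0.02, with 3 upregulated and 1 downregulated. The other 19 members, with no RefSeq region, had a median of -0.06, with 2 upregulated (Rpl29 and Rpl7) and none downregulated. Over all genes tested, 2.96% were upregulated and 0.586% downregulated.

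Markers of several cell types differed in the same comparison. All 12 microglial markers were upregulated, with a median of 2.109 and a summed level of 1590 and 1360 CPM in PTS + RS against 353 and 319 CPM in RS, and 5 of 10 astrocyte markers were upregulated, with sums of 7930 and 6730 CPM against 4560 and 4590 CPM. None of 10 oligodendrocyte markers (median 0.247) or 10 neuronal markers (median -0.152) passed the test, and the markers of cortical neurons were present in all 4 libraries, at 1530 and 1740 CPM against 1840 and 1830 CPM. Choroid plexus markers differed between single libraries, with sums of 1660 and 52.4 CPM in PTS + RS and 1870 and 3880 CPM in RS. The highest level of a member lay in PTS + RS replicates 1 and 2 and RS replicates 1 and 2 in 11, 30, 19 and 12 of the 72 members, against 30.3%, 24.1%, 20.4% and 25.2% of all genes. The lowest level lay in these libraries in 25, 12, 5 and 30 members, against 29.6%, 25.5%, 20.5% and 24.4% of all genes. In these 4 libraries the summed share of the members ran in the reverse order of the choroid plexus sums. It was lowest in RS replicate 2 (0.754%) and highest in PTS + RS replicate 2 (0.825%). The RGFP109 and NaCl libraries did not follow this order. RGFP109 replicate 1 had a choroid plexus sum of 1530 CPM and a share of 0.826%. RGFP109 replicate 2 had 14.8 CPM and 0.761%. RS replicate 1 and PTS + RS replicate 1 had similar choroid plexus sums and held the lowest level of 5 and 25 members. The part of these cell types in the differences of the members was not tested.

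The comparison of RGFP109 with NaCl asks what this inhibitor of HDAC1 and HDAC3 changed in mice with both stroke and restraint. No member passed the test in edgeR, in either direction, nor did any of the 17565 genes tested (0.00%), and at an unadjusted p under 0.05 there were 0 members, with 88 genes higher and 118 lower among all tested (0.501% and 0.672%). DESeq2 and limma-voom called 0 members as well. Even so the members leaned to one side, with 64 of the 72 below 0 and a median of -0.112, against -0.016 over all genes. The 2 libraries of RGFP109 lay below both NaCl libraries in 29 members, or 40.3% against 13.8% of all genes, and above both in 2, or 2.78% against 12.8%. The median standard error of the members was 0.182, against 0.297 over all genes.

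The lowest fitted values were those of Rps12 at -0.34, Rpl23a at -0.30, Rpl28 at -0.30, Rps14 at -0.28 and Rps25 at -0.27. Rps12 was at 54.4 and 46.1 CPM with RGFP109 and at 68.9 and 58 CPM with NaCl. Rpl28 was at 97.5 and 82.5 CPM against 106 and 115 CPM. In both, the groups did not overlap but lay close to each other. Rps14 was at 149 and 161 CPM against 164 and 213 CPM, and Rps25, used by some viral and cellular mRNAs for entry of the ribosome, at 117 and 113 CPM against 131 and 147 CPM.

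The highest values were 0.60 for Rps27a, 0.54 for Rpl17, 0.34 for Rpl24, 0.21 for Rpl37 and 0.15 for Rpl9. Rps27a was at 72.1 and 37.1 CPM with RGFP109 and at 35 and 36.9 CPM with NaCl, so 1 library was high and the other 3 were alike. Rpl17 was at 51.6 and 22 CPM against 30.1 and 20.3 CPM, and its value went from 0.54 to -0.04 when the counts of the copies were added. Rpl24 rested on CPM of 1.4, 0.748, 1.19 and 0.489, and summed with its copies it lay at -0.14. The called members of the first comparison lay between -0.25 (Rpl26) and -0.04 (Rpl29) here, all with an adjusted p of 1 in edgeR's quasi-likelihood test.

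The lean came from the libraries of replicate 2. Within replicate 1, labelled cortex, 35 of the 72 members lay below 0 and the median of RGFP109 over NaCl was 0.022 on the log2 scale. Within replicate 2, labelled amygdala, 64 lay below 0, or 88.9% against 50.4% of all genes, with a median of -0.249. The small and the large subunit behaved alike there, with medians of -0.277 and -0.24. With 1 library in each of these cells, the difference between replicate numbers was not tested. NaCl replicate 2 held the highest level of 50 of the 72 members, or 69.4% against 20.6% of all genes, and RGFP109 replicate 2 the lowest level of 39, or 54.2% against 21.7%. Without NaCl replicate 2 the median over the members was -0.016, and without NaCl replicate 1 it was -0.215.

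The members that can be told apart best from copies showed the same, with all 10 below 0 in replicate 2 and a median of -0.345. Rps3 was at 202 and 191 CPM with RGFP109 and at 204 and 229 CPM with NaCl, and Rpl8 was at 193 and 175 CPM against 204 and 241 CPM. In both genes the highest library was NaCl replicate 2 and the lowest RGFP109 replicate 2.

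**Figure D4:**
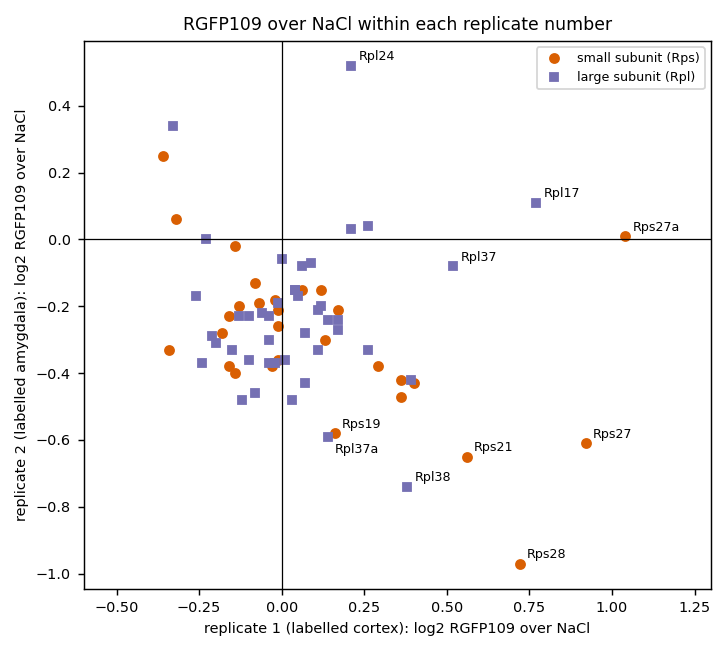
log2 ratio of RGFP109 to NaCl of each of the 72 members within replicate 1 (labelled cortex, horizontal axis) and within replicate 2 (labelled amygdala, vertical axis), each from 1 library per treatment. The points scatter on both sides of 0 along the horizontal axis (35 below 0), whereas 64 lie below 0 on the vertical axis, down to -0.97 for Rps28.

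The members were not alone in this. Within replicate 2, the median was -0.247 over the 37 subunits of complex I (36 below 0), -0.154 over 77 mitochondrial ribosomal proteins (61 below 0) and -0.098 over 16 translation factors with TOP mRNAs (13 below 0). Genes with a short coding sequence tended to lie lower in general within replicate 2. In 5 equal groups of coding length, the medians of other protein-coding genes were -0.091, -0.031, 0.002, 0.033 and 0.086 from the shortest to the longest. In the shortest group, which holds 66 of the 72 members, the members had a median of -0.274. Spearman's rho with coding length was 0.35 across the members and 0.33 across 10312 other protein-coding genes, as a description. Within replicate 1 the direction was reversed, with a rho of -0.35 across the members and -0.09 across the other genes. The medians of the other genes there went from 0.054 in the shortest group to -0.073 in the longest. The part of coding length in the lean of the members was not tested.

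Libraries of this experiment also differed in tissue content. Markers of the olfactory bulb summed to 1210 CPM in NaCl replicate 1 against 12.9 to 17.6 CPM in the other 3 libraries, and markers of the choroid plexus to 1530 CPM in RGFP109 replicate 1 against 9.1 to 15.8 CPM. Markers of blood summed to 127 and 438 CPM in replicate 2 of RGFP109 and NaCl against 1.65 and 12.9 CPM in replicate 1. Their part in the values of the members was not tested.

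Since the replicate numbers of these groups mark a labelled tissue, libraries labelled amygdala were compared with libraries labelled cortex, with treatment kept as a term. No member passed the test, nor did any gene (0.00%) in edgeR, while at an unadjusted p under 0.05 there were 0 members higher and 1 lower, against 1069 and 538 of all genes (6.09% and 3.06%). DESeq2 and limma-voom called 0 members here too. The median of the members was 0.014, with 38 above 0 and 34 below, against -0.013 over all genes. Groups did not overlap in 5 members higher and 8 lower, or 6.94% and 11.1% against 21.6% and 22.4% of all genes. The markers of the amygdala differed in direction by the measure used. They summed to 206 and 197 CPM in the libraries labelled amygdala and to 270 and 204 CPM in those labelled cortex, whereas 7 of the 9 tested lay above 0, with a median of 0.593. The libraries did not overlap in 4 of the 9 on the higher side, or 44.4% against 21.6% of all genes. On the lower side they did not overlap in 1, or 11.1% against 22.4%. Markers of cortical neurons summed to 2030 and 1950 CPM in the libraries labelled amygdala and to 2020 and 1380 CPM in those labelled cortex. Of these 10 markers 9 lay above 0 as well, with a median of 0.647. The libraries did not overlap in 4 of them on the higher side (40%) and in 0 on the lower side.

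The 1 member with an unadjusted p under 0.05 was Rpl17 (log2 fold change -0.90, adjusted p = 0.46), at 22 and 20.3 CPM in the libraries labelled amygdala and 51.6 and 30.1 CPM in those labelled cortex. Rps27 had the highest value, 1.02 (adjusted p = 0.57), and Rpl24 the lowest, -1.07 (adjusted p = 0.64). Rps28 lay at 0.35, Rps27a at -0.44, Rps13 at -0.36 and Rpl7a at -0.26. With the counts of the copies added, Rps27 went from 1.02 to 0.13, Rpl17 from -0.90 to -0.09, Rpl24 from -1.07 to -0.40 and Rps28 from 0.35 to 0.04. Rps27a (-0.38), Rps13 (-0.34) and Rpl7a (-0.19) moved less.

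Rps27 was compared with its copy Rps27rt library by library. In the RGFP109 and NaCl libraries Rps27 was at 55.5, 66.1, 29.2 and 101 CPM (RGFP109 replicates 1 and 2, then NaCl replicates 1 and 2). Its retrotransposed copy Rps27rt, which shares all 203 windows of the coding sequence, was at 40.7, 35.1, 73.2 and 17.7 CPM in the same libraries. The library with the most counts on one of these genes had the fewest on the other, and the sum of Rps27 with its copies was 97, 102, 104 and 119 CPM. The PTS + RS and RS libraries did not show this throughout, with Rps27 at 53.8, 33.2, 34.8 and 26.4 CPM and Rps27rt at 49.8, 62.7, 48.2 and 43.2 CPM, both lowest in RS replicate 2. How reads were divided between the genes was not tested. The log2 ratio of NaCl replicate 2 to replicate 1, 1.79 for Rps27 alone, was the largest of any member in that group. Added to its copies, Rps27 had a fold change of -0.17 between RGFP109 and NaCl, with a standard error of 0.168 in place of 0.584.

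**Figure D5:**
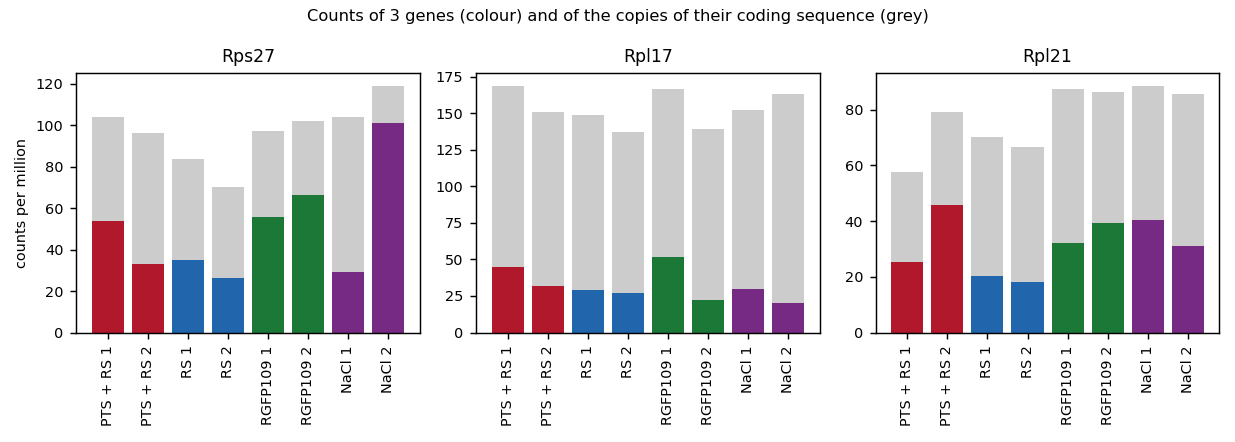
CPM of Rps27, Rpl17 and Rpl21 (colour) stacked on those of the copies of their coding sequence (grey) in each of the 8 libraries. The coloured part of Rps27 runs from 26.4 to 101 CPM, while the whole bar runs from 69.9 to 119 CPM.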

How the data were processed

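Per the labels and the study's methods, paired-end reads were aligned to GRCm38 with STAR 2.4.0 and counted per gene with HTSeq 0.6.1, and the submitters' notes also name limma. The authors deposited raw read counts and FPKM for each gene and library. Whether counting used strand, and how reads that match several places were handled, is not stated. The labels name a directional kit and the methods another, and the labels give RGFP109 for 2 weeks. Deposited fold changes and p-values of the authors' own comparisons, and 8 per-library columns of normalized signal, were not used.

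Here, genes were filtered with filterByExpr, library sizes were scaled by TMM, and the quasi-likelihood test of edgeR was used between groups (edgeR 4.0.16, R 4.3.3) with Benjamini-Hochberg adjustment over all genes tested, with limma 3.58.1 and DESeq2 1.42.0 as alternatives. A member was called at an adjusted p under 0.05. Single-library log2 ratios used a prior count of 2. The analysis was tested on simulated counts. Genes of the second table, which lists 28229, were matched by position to the first, and all 28229 symbols agreed. Coding sequences, windows and GC content came from GENCODE release M21 (GRCm38). A copy was a pseudogene that holds a 50-base window of the coding sequence, or another gene where such windows make up at least 25% of its longest transcript.

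Values of some single genes are not reported here, and the 2 plots with a row per gene leave them out. The members and lists were chosen with earlier results of these data known. Named members were the 5 highest and 5 lowest fitted values of each comparison, every called member, the 4 highest and 4 lowest levels, and 18 members named whatever their values. Ribosomal proteins and paralogs outside the rule were named as well, and other lists by their leading genes. Rpl8 and the 12 members whose RGFP109 ratio turned between replicate numbers were chosen after their values were seen. The GC correction, the members with under 50% shared windows and the sums with copies were added after the data were seen. Depth gives intervals for shares that cover counting error only. In the RGFP109 and NaCl groups, the replicate number is the labelled tissue, and same-numbered libraries deviated together with a correlation of 0.3.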

Additional observations from a re-analysis of the deposited data

Results flagged for a closer look

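In 12 of the 72 members the RGFP109 library lay on one side of its NaCl library in replicate 1 (labelled cortex) and on the other side in replicate 2 (labelled amygdala), by at least 0.25 on the log2 scale in each. That is 16.7% of the members, against 12.1% of all genes tested and 5.92% of the protein-coding genes with a mean of at least 10 CPM. Each value rests on 1 library per treatment, so the difference between replicate numbers was not tested. Across the 72 members, Spearman's rho of the ratio with coding length was -0.35 in replicate 1 and 0.35 in replicate 2. The part of coding length in these turns was not tested.

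In 10 of these the ratio was above 0 in replicate 1 and below 0 in replicate 2. That is 13.9% of the members, against 5.87% of all genes and 2.99% of protein-coding genes at 10 CPM or more. The log2 ratios in replicates 1 and 2 were 0.72 and -0.97 for Rps28, 0.92 and -0.61 for Rps27, 0.56 and -0.65 for Rps21 and 0.38 and -0.74 for Rpl38. Rps28, a small protein of the subunit head, was at 35.1 and 25 CPM with RGFP109 and at 21.3 and 49 CPM with NaCl, so that both NaCl libraries lay outside the RGFP109 pair. Rps21 was at 98.7 and 80 CPM against 66.8 and 126 CPM, in the same order of libraries. The ratios were 0.40 and -0.43 for Rps15, 0.36 and -0.47 for Rps16, 0.39 and -0.42 for Rpl41 and 0.36 and -0.42 for Rps29. They were 0.29 and -0.38 for Rps2 and 0.26 and -0.33 for Rpl31. In the other direction, Rpl21 was at -0.33 and 0.34 and Rps13 at -0.36 and 0.25.

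When the counts of the copies were added, 8 of the 12 still differed in this way, and Rpl21, Rpl31, Rps13 and Rps27 no longer did. The sums gave -0.02 and 0.01 for Rpl21 and -0.10 and -0.23 for Rps27. For Rps28 the values were 0.31 and -0.72. Over all 72 members the medians of the sums were 0 in replicate 1 and -0.28 in replicate 2, where 69 lay below 0.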

How the results depend on the processing

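For PTS + RS against RS, the number of upregulated members went from 7 to 11 with DESeq2, 17 without a filter on low counts, 4 with GC correction and 0 with all 8 libraries in 1 fit. The number downregulated went from 1 to 3 with DESeq2, 8 without a filter, 0 with all 8 libraries, and 2 after counts were summed with copies. The 10 members under 50% shared windows hold 0 upregulated and 0 downregulated genes, as in the fit of all members, and their own median was -0.086. Leaving out a library gave between 1 and 20 upregulated and between 1 and 15 downregulated members: 20 and 5 without PTS + RS replicate 1, 13 and 15 without PTS + RS replicate 2, 1 and 2 without RS replicate 1, and 3 and 1 without RS replicate 2. The lone library is then assumed to vary like the other group. The PTS + RS and RS libraries share only a replicate number (correlation of deviations 0.04), and with the replicate block 10 members were upregulated and 2 downregulated. With the block and GC correction together, 7 were downregulated. The cause of these shifts was not tested. The share of all genes called under these settings is not given. The counts therefore cannot tell a shift of the members from a shift of all genes. The median over members, -0.007, stayed between -0.052 and 0.048 when a library was left out. No result changed sign past the threshold. For RGFP109 against NaCl, where the number marks the labelled tissue, no alternative called a member, the replicate block included. Leave-one-out fits of the comparison between labelled tissues, with treatment kept, leave no residual degrees of freedom and are given as values only, with medians between -0.129 and 0.149. Of the other values compared across settings, 942 kept their side of the threshold, 51 newly passed it and 27 no longer passed it. With 2 libraries a group, the precision of each value rests on the spread of 2 libraries.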
